A study of Homo sapiens with 10 samples.

Results

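Glucose removal was followed in 3 knockout clones of MDA-MB-231, a human triple-negative breast cancer line, that lack BACH1, a heme-regulated transcription repressor of heme oxygenase and other antioxidant genes. The members are the 6 of 10 RNA-seq libraries made from BACH1 KO#1, KO#2 and KO#3, called clones 1, 2 and 3 here, each held for 40 hours in DMEM with 0 g/liter glucose and in DMEM with 4.5 g/liter glucose. The other 4 libraries come from 2 WT control clones held at the same glucose levels. The knockouts were made with Cas9 protein and synthetic guide RNAs. Each clone and glucose level gave a single library, so an SD is the spread of levels between clones. An SE rests on the spread of the glucose differences between clones. Values are TPM (transcripts per 1000000), which add up to 1000000 in every library and hide the sequencing depth, so the depth is unknown. Of 36459 symbols, 12641 genes reached 1 TPM in at least 3 of the 6 KO libraries. On log2(TPM + 1), limma compared the glucose levels clone by clone, with Benjamini-Hochberg adjustment, and genes are named as called below an adjusted p of 0.05. Rises and falls are differences in log2(TPM + 1), a scale that compresses low genes.

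A cell without glucose loses the fuel of glycolysis and the sugar donors for N-linked glycans. Proteins that cannot be glycosylated misfold in the endoplasmic reticulum (ER), where the sensors ATF6, IRE1 and PERK raise chaperones and, through the factor ATF4, the genes of amino acid supply and the factor CHOP. In the cytosol, misfolded proteins release heat shock factors onto the genes of the HSP70 chaperones. Starved cells also leave the division cycle. BACH1 binds the antioxidant response elements of HMOX1 and related genes with small MAF proteins and competes there with the activator NRF2.

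The libraries carried the mesenchymal markers of the line, and markers of other cell types were in part present too. VIM, which encodes vimentin, lay between 1321 and 2066 TPM and CD44 between 764 and 889 TPM in the 6 KO libraries, and the 8 markers of the line summed to 4592 to 5846 TPM without and 4769 to 5280 TPM with glucose. Of 9 luminal and epithelial markers, 4 stayed below 1 TPM in every KO library, among them ESR1, the estrogen receptor gene, at most 0.95 TPM. The keratin genes KRT8 and KRT18 were high, at 139 to 335 and 150 to 291 TPM, and the luminal factor GATA3 was at 10.8 to 40.2 TPM. The list summed to 328 to 539 TPM without and 427 to 648 TPM with glucose. Of 6 leukocyte markers, 5 stayed below 1 TPM, PTPRC at most at 0.28 TPM. The sum of 125 to 132 TPM without and 72.1 to 86.8 TPM with glucose came almost wholly from CD68, a lysosomal glycoprotein gene of macrophages that rose by 0.71 (adjusted p = 0.00106 from limma). Its part in the results below was not tested. The 6 fibroblast markers summed to 10.8 to 17.7 TPM without and 12.3 to 18.4 TPM with glucose. Genes at 1 TPM or more numbered 12497 to 12933 per KO library without glucose and 12279 to 12556 with glucose. Genes of the mitochondrial genome held 29.1, 23.6 and 22.4% of the TPM without glucose in clones 1, 2 and 3, against 29.7, 26.9 and 27.9% with glucose. The share of clone 1 thus changed the least.

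BACH1 RNA itself was not lost in the knockout clones. It stood at 12.6, 23.9 and 17.2 TPM without glucose, against 5.18, 2.84 and 3.42 TPM with glucose, in clones 1, 2 and 3. All starved libraries lay above all fed ones, and the transcript rose by 1.96 on the log2 scale (SE 0.26, adjusted p = 0.00145 from limma). The WT clones held 19.7 and 20.6 TPM without glucose and 8.61 and 8.13 TPM with it. A transcript that carries a small Cas9 deletion is still counted, so these levels do not check the knockout. The antioxidant enzyme gene HMOX1, the textbook BACH1 target, was at 274, 470 and 394 TPM in the fed KO clones and at 6.58 and 8.78 TPM in the fed WT clones, so the genotypes did not overlap.

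Glucose removal changed a large share of the transcriptome in the clones without BACH1. Of the 12641 genes, 5282 (41.8%) were called, 1598 (12.6%) higher and 3684 (29.1%) lower at 0 than at 4.5 g/liter. TPM of the starved and fed groups did not overlap for 1408 genes (11.1%) that were higher and 3686 (29.2%) that were lower. Large changes were mostly increases: 280 called genes (2.22%) rose by at least 1 on the log2 scale in every KO clone and 64 (0.506%) fell by as much in every clone. That imbalance rests on the limit, since at 0.58 in place of 1 the counts were 640 and 578. At a limit of 1, median-ratio scaling gave 373 and 25 and quantile normalization 307 and 31. The median difference over all genes was −0.16. The split of the calls rests on that shift, since after median-ratio scaling, with a median of −0.01, 2271 genes were higher and 1815 lower. Quantile normalization gave 1867 and 2402. The number of calls was 2745 without clone 2, 3248 without clone 3, 5642 without clone 1 and 2291 without pairing.

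The ER folding machinery rose almost as a whole. Of 17 chaperones and foldases of the ER, 16 were called higher (94.1%, against 12.6% over all genes) and none lower, with a median of 1.60. The starved group lay above the fed group without overlap for 16, against 11.1% of all genes. The promoters of HSPA5 and HSP90B1, the ER members of the HSP70 and HSP90 families, are shown because they carry the ER stress response element (ERSE), CCAAT and CCACG with 9 bases between them, which NF-Y and ATF6 bind, in capitals. Each line is the 250 bases before the gene's start in RefSeq on GRCh38.p14, 5′ to 3′ on the gene's strand, HSPA5 from chr9:125241344-125241593 (minus strand) and HSP90B1 from chr12:103930160-103930409 (plus strand).
HSPA5: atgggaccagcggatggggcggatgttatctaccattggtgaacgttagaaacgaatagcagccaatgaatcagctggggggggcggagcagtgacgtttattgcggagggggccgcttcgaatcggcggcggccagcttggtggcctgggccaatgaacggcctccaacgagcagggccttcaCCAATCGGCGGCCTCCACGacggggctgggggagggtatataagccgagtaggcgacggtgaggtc
HSP90B1: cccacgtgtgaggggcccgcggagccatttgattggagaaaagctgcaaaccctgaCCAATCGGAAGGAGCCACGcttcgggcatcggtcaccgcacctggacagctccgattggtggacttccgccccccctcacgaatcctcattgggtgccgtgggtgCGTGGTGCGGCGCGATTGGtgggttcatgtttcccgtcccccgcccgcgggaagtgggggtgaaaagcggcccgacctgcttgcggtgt
The element lies at −66 to −48 in HSPA5, and at −194 to −176 and, on the opposite strand, at −89 to −71 in HSP90B1. Searched on both strands, it occurred in 6 of the 16 promoters of the list found in the table (37.5%), those of HSPA5, HSP90B1, CALR, CANX, CRELD2 and ERO1B, against 22 of all 27305 promoters (0.0806%).

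HSPA5, also called BiP, was at 1404, 1106 and 985 TPM without glucose in clones 1, 2 and 3, against 149, 165 and 169 TPM with glucose. Every starved library lay far above every fed one, a difference of 2.83 (SE 0.13, adjusted p = 2.48e-05 from limma). HSP90B1, which folds secreted and membrane proteins, reached 2118, 1855 and 1264 TPM without glucose, against 470, 472 and 471 TPM with glucose. The fed clones were level while the starved clones ran in the order 1, 2, 3, and the gene rose by 1.85 (SE 0.13, adjusted p = 0.000179 from limma). PDIA3, a disulfide isomerase for glycoproteins, averaged 601 ± 91.8 TPM without and 228 ± 8.81 TPM with glucose (SD, n = 3 clones each). ERO1B, an oxidase that recharges these isomerases, averaged 21.8 ± 4.12 and 4.96 ± 0.96 TPM (SD, n = 3 clones each). Its relative ERO1A was the member not called, at 82.2, 93.0 and 65.6 TPM without glucose and 85.9, 95.7 and 70.2 TPM with glucose. The genes that remove misfolded proteins from the ER moved less: 6 of 13 were called higher (46.2%, against 12.6% over all genes) and none lower. Their median was 0.28, and 3 were called higher without pairing. HERPUD1, which builds the retrotranslocation complex, was the strongest of them, at 286, 249 and 230 TPM without and 62.6, 60.8 and 57.7 TPM with glucose, a rise of 2.06 (SE 0.08, adjusted p = 1.40e-05 from limma). Of the 7 sensors and regulators, EIF2AK3 (PERK), ERN1 (IRE1) and its target XBP1 rose (42.9%, against 12.6% over all genes). CREB3L2 fell (14.3%, against 29.1% over all genes). ERN1 was not called without clone 2 or without clone 3.

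Of 14 ATF4-CHOP stress factors, 10 rose (71.4%, against 12.6% over all genes), with a median of 1.39. ATF5 alone fell, by 0.46 (adjusted p = 0.0163 from limma). That call was lost without clone 2, without clone 3, without pairing and after either rescaling (median-ratio or quantile). CEBPG, DDIT4 and JDP2 were not called, although CEBPG and JDP2 were called higher without clone 3. CEBPG was also called higher after median-ratio scaling and quantile normalization (adjusted p = 0.0318 and 0.0334 from limma). PPP1R15A, the phosphatase subunit GADD34 that restores translation, was at 655, 1357 and 1048 TPM without glucose, against 58.2, 53.4 and 65.4 TPM with glucose. That is a rise of 4.03 (SE 0.19, adjusted p = 2.48e-05 from limma), with no overlap. DDIT3, which encodes CHOP, averaged 118 ± 15.2 TPM without and 21.6 ± 6.26 TPM with glucose, and ATF3 averaged 77.5 ± 30.0 and 6.53 ± 0.67 TPM (SD, n = 3 clones each). GADD45A, a growth arrest gene, was at 191, 671 and 375 TPM without and 46.9, 62.2 and 48.8 TPM with glucose. ATF4 RNA rose less than these, by 0.72 (SE 0.17, adjusted p = 0.0131 from limma, and 0.0681 with no filter on low genes). Its levels were 393, 340 and 293 TPM without and 165, 202 and 258 TPM with glucose, so the groups stood apart while the clones ran in opposite orders at the 2 glucose levels. CHAC1, a glutathione-degrading enzyme and ATF4 target, is shown with its C/EBP-ATF response element (CARE, the letters TGATGNAA on either strand) in capitals, in the 250 bases before its start at chr15:40953221-40953470 (plus strand, RefSeq, GRCh38.p14).
CHAC1: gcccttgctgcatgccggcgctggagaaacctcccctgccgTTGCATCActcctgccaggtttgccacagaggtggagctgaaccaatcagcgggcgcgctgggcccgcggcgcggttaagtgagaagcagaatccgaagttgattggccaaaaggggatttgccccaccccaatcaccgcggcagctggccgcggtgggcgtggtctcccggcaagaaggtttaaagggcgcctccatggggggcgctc
The match lies on the opposite strand at −209 to −202. Of 12 promoters of the list found in the table, 2 held these letters (16.7%, ATF3 and CHAC1), against 870 of 27305 (3.19%).

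Amino acid supply genes were called higher more often than lower, though less uniformly than these factors. Of 11 amino acid synthesis genes tested, 7 rose (63.6%, against 12.6% over all genes), with a median of 0.68. ALDH18A1 fell (9.09%, against 29.1% over all genes). That fall was not called without clone 2, without pairing or after either rescaling. Asparagine synthetase, ASNS, was at 134, 140 and 184 TPM without glucose, against 28.6, 49.0 and 104 TPM with glucose, a rise of 1.50 (SE 0.22, adjusted p = 0.00196 from limma). The starved clones lay close together and the fed clones ran from low in clone 1 to high in clone 3. MTHFD2, a mitochondrial folate enzyme, stood at 78.8, 80.3 and 82.3 TPM without and 29.8, 36.3 and 56.8 TPM with glucose. CTH, which makes cysteine from cystathionine, was at 10.7, 95.4 and 68.4 TPM without and 2.49, 12.1 and 17.3 TPM with glucose, and clone 1 was the lowest at either level. Among 11 amino acid transporters, 6 rose (54.5%, against 12.6% over all genes), with SLC38A2 the first by p. SLC7A5 and SLC36A4 fell (18.2%, against 29.1% over all genes). SLC36A4 was called only with clones 2 and 3 both present, and not without pairing or after either rescaling. The transporter medians were 0.99, 0.54 and −0.01 in clones 1, 2 and 3. Of 20 cytosolic tRNA synthetases, 10 rose (50%, against 12.6% over all genes), by at most 1.33 for WARS. DARS fell by 0.25 and VARS by 0.36, a share of 10% lower against 29.1% over all genes. Neither fall was called without clone 2, without clone 3, without pairing or after either rescaling, where median-ratio scaling left −0.07 and −0.18, and DARS was not called without clone 1 either. Without pairing the clones, 3 synthesis genes, 3 transporters and 3 synthetases rose, against 758 of all 12641 genes. The transporters dropped to 3 called higher without clone 2 and 4 without clone 1, where 3 were called lower. The synthetases dropped to 4 called higher without clone 2 and 5 without clone 1. Removing the genes of the mitochondrial genome left 4 transporters called higher and 2 lower, and 4 synthetases called higher and 4 lower.

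The cytosolic chaperones rose almost as a whole as well. Of 16 heat shock genes, 15 rose (93.8%, against 12.6% over all genes), with a median of 1.55. Only HSPA4 was not called, though it was without clone 1 (adjusted p = 0.041 from limma). HSPA6, a strictly stress-induced HSP70, is shown with its heat shock element (HSE, searched as GAA, TTC and GAA with 2 bases between them, either strand) in capitals, in the 250 bases before its start at chr1:161524290-161524539 (plus strand, RefSeq, GRCh38.p14).
HSPA6: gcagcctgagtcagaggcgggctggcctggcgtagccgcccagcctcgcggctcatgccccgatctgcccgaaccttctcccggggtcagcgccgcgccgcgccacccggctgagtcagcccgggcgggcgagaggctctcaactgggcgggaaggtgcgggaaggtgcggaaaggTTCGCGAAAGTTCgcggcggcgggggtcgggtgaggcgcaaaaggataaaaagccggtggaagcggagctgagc
The element lies on the opposite strand at −74 to −62. This spelling occurred in 2 of 16 promoters of the list (12.5%, HSPA8 and HSPA6) and in 120 of 27305 (0.439%).

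HSPA6 was at 1221, 1654 and 1928 TPM without glucose in clones 1, 2 and 3, against 1.42, 1.22 and 1.36 TPM with glucose, a rise of 9.40 (SE 0.14, adjusted p = 6.26e-08 from limma). HSPA1B, an inducible HSP70, reached 6274, 10730 and 15427 TPM without glucose, against 97.5, 95.2 and 93.6 TPM with glucose. HSPA1A, its neighbour in the genome, was at 2378, 3511 and 5897 TPM and at 23.1, 30.1 and 25.9 TPM. The 3 genes ran in the same clone order without glucose and were near level with it. HSPA1A and HSPA1B are near-identical copies and HSPA6 resembles them, so how reads were divided between them is uncertain. Co-chaperones with sequences of their own moved alike: DNAJB1, which activates HSP70, averaged 1316 ± 295 TPM without and 105 ± 6.52 TPM with glucose (SD, n = 3 clones each). HSPH1, a nucleotide exchange factor for HSP70, was at 454, 590 and 961 TPM without and 115, 63.5 and 69.9 TPM with glucose. The arsenite-inducible ubiquitin-binding gene ZFAND2A was at 744, 1230 and 1291 TPM without and 33.1, 37.6 and 39.1 TPM with glucose, a rise of 4.82 (SE 0.12, adjusted p = 1.80e-06 from limma). Summed over the list, heat shock transcripts held 19517, 30776 and 40680 TPM without glucose, against 5672, 5179 and 5200 TPM with glucose.

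**Figure D1:**
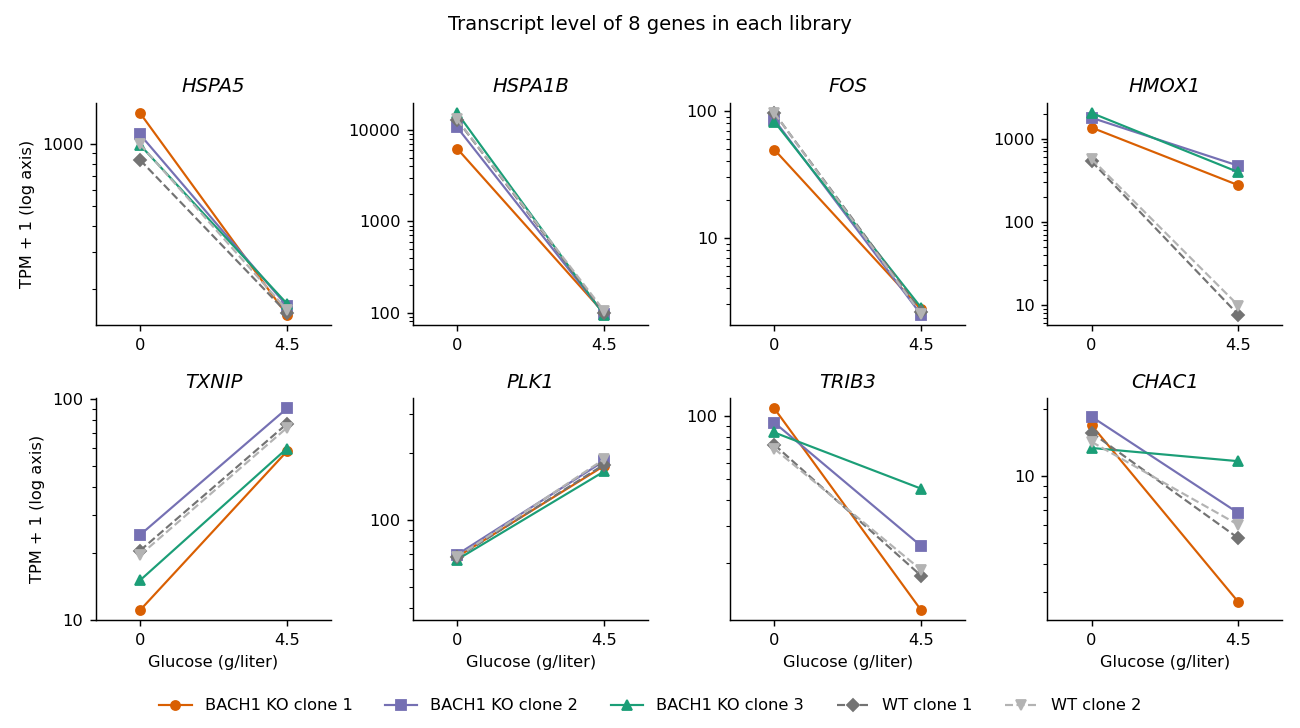
TPM + 1 on log axes (vertical) of 8 genes at 0 and 4.5 g/liter glucose (horizontal), 1 point per library and 1 line per clone, with the 3 BACH1 KO clones solid and the 2 WT clones dashed. HSPA5, HSPA1B and FOS are higher and TXNIP and PLK1 lower without glucose in all clones, HMOX1 is flatter in the KO clones, and for TRIB3 and CHAC1 the clones are spread wider with glucose than without.

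Immediate early transcription factors rose as a group. Of 18 genes of the AP-1, EGR and NR4A families and their like, 17 were called higher (94.4%, against 12.6% over all genes) and FOSL2 lower. The median was 2.53, and 12 rose by at least 1 in every clone. The starved and fed groups did not overlap for 14 that were higher and 1 that was lower, against 11.1 and 29.2% over all genes. FOS was at 48.5, 84.2 and 81.2 TPM without glucose, against 1.73, 1.48 and 1.81 TPM with glucose, a rise of 4.72 (SE 0.18, adjusted p = 1.09e-05 from limma). EGR1, a zinc finger factor, stood at 63.1, 112 and 202 TPM without and 7.64, 1.66 and 2.27 TPM with glucose. The EGR1 groups did not overlap, and clone 1 showed the lowest starved and the highest fed value. FOSB averaged 94.2 ± 37.3 TPM without and 0.70 ± 0.49 TPM with glucose, and the synaptic plasticity gene ARC 66.1 ± 20.9 and 0.12 ± 0.07 TPM (SD, n = 3 clones each). FOSL2 was at 50.4, 67.0 and 53.3 TPM without and 74.6, 97.9 and 92.0 TPM with glucose. Beyond these families, ID2, an inhibitor of basic helix-loop-helix factors, was at 55.7, 137 and 300 TPM without and 0.70, 0.64 and 0.25 TPM with glucose (rise of 6.45, SE 0.43, adjusted p = 0.000138 from limma). SNAI1, a repressor of E-cadherin, reached 107, 261 and 250 TPM without and 2.27, 3.27 and 3.25 TPM with glucose. RGS2, a regulator of G protein signalling, averaged 121 ± 50.2 and 2.19 ± 0.48 TPM (SD, n = 3 clones each).

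Of 13 cytokine and chemokine genes tested, 11 rose (84.6%, against 12.6% over all genes) and none fell, with a median of 1.54. Only 6 were called without pairing and 7 without clone 3. CXCL8, a neutrophil attractant, was at 54.6, 98.9 and 60.3 TPM without and 13.3, 22.3 and 17.2 TPM with glucose. IL1A averaged 13.9 ± 1.63 TPM without and 2.61 ± 0.13 TPM with glucose, and IL1B averaged 29.5 ± 7.77 and 6.23 ± 0.61 TPM (SD, n = 3 clones each). GDF15, a secreted stress hormone, rose by 3.42 (SE 0.15, adjusted p = 2.48e-05 from limma). Its levels were 11.6, 25.4 and 25.5 TPM without and 0.16, 1.12 and 1.95 TPM with glucose. Among 11 BCL2 family genes the BH3-only killers BCL2L11, PMAIP1, BBC3 and BMF rose (36.4%, against 12.6% over all genes). BCL2, BCL2L1 and BAK1 fell, a share of 27.3% lower, no more than the 29.1% over all genes. Without clone 3, BCL2 and BAK1 were not called, without clone 2 BAK1 was not, and without pairing neither was. After median-ratio scaling the fall of BAK1 shrank to −0.18 (adjusted p = 0.207 from limma). PMAIP1 (NOXA) was at 66.3, 104 and 76.2 TPM without and 37.4, 18.1 and 21.1 TPM with glucose, with the smallest gap in clone 1.

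Antioxidant genes rose without BACH1 too. Of 23 NRF2 and heme defence genes, 17 were called higher (73.9%, against 12.6% over all genes) and none lower, with a median of 0.57. HMOX1 was at 1356, 1780 and 2033 TPM without glucose, against 274, 470 and 394 TPM with glucose, so that the groups stood apart on top of a high fed level. The rise was 2.20 (SE 0.10, adjusted p = 2.48e-05 from limma). TXNRD1, thioredoxin reductase, was at 747, 1030 and 879 TPM without and 230, 352 and 297 TPM with glucose. FTL, the ferritin light chain, averaged 5218 ± 571 TPM without and 1790 ± 211 TPM with glucose (SD, n = 3 clones each). Of 9 genes for BACH1 and its partners, BACH1 and all 3 small MAF genes rose (44.4%, against 12.6% over all genes). NFE2L3 and KEAP1 fell, a share of 22.2% against 29.1% over all genes. KEAP1 was not called without clone 2, without clone 3 or after either rescaling (−0.14 with median-ratio scaling), and without pairing neither KEAP1 nor NFE2L3 was. MAFF was at 65.8, 115 and 91.6 TPM without and 18.8, 23.8 and 31.1 TPM with glucose. Of 24 autophagy and lysosome genes, 11 rose (45.8%, against 12.6% over all genes) and none fell. Called higher were 7 without clone 2 and 7 without clone 3. SQSTM1, the selective autophagy receptor and also a listed NRF2 target, was at 422, 444 and 527 TPM without and 145, 100 and 137 TPM with glucose.

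The genes that sense and take up glucose did not move together. TXNIP, an arrestin-domain gene kept on by glucose through MondoA and ChREBP, was at 10.1, 23.2 and 14.1 TPM without glucose, against 56.9, 89.7 and 58.7 TPM with glucose, a fall of 2.09 (SE 0.12, adjusted p = 6.79e-05 from limma) without overlap. Its relative ARRDC4 was low throughout, at 0.76, 1.14 and 1.21 TPM without and 0.96, 2.19 and 1.99 TPM with glucose, and was not called. ARRDC3 rose, at 28.4, 50.9 and 88.7 TPM without and 11.5, 15.1 and 19.7 TPM with glucose. The glucose transporter SLC2A3 (GLUT3) was at 44.4, 61.1 and 49.6 TPM without and 10.2, 9.40 and 11.4 TPM with glucose, a rise of 2.21 (SE 0.14, adjusted p = 9.02e-05 from limma). SLC2A14 is a close copy of it, so its own rise is uncertain. SLC2A1 (GLUT1) fell by 0.60 (adjusted p = 0.00384 from limma), at 160, 182 and 201 TPM without and 199, 310 and 335 TPM with glucose, its groups overlapped by fed clone 1, and it was not called without pairing. Of 22 glycolysis and lactate genes, 2 rose (HK2 and PFKFB3) and 4 fell (PGAM1, PKM, LDHA and SLC16A3), with a median of 0.07. These shares, 9.09% higher and 18.2% lower, lie below those over all genes (12.6 and 29.1%). The counts depended on the scaling: 7 rose and 2 fell after median-ratio scaling, but 3 rose and 6 fell after quantile normalization. Removing the genes of the mitochondrial genome gave 2 and 5. PGAM1 and PKM were not called once any clone was left out. LDHA, lactate dehydrogenase A, averaged 1208 ± 128 TPM without and 1646 ± 231 TPM with glucose (SD, n = 3 clones each), a fall not called without pairing. In the hexosamine and N-glycan precursor list, 7 of 29 genes rose (24.1%, against 12.6% over all genes) and 6 fell (20.7%, against 29.1%). These counts were 8 and 1 after median-ratio scaling, 5 and 1 without pairing, 4 and 2 without clone 2, and 6 and 2 without clone 3. The rate-limiting GFPT2 was at 24.0, 57.0 and 60.0 TPM without and 6.38, 9.63 and 15.2 TPM with glucose, and UAP1, which makes UDP-GlcNAc, averaged 409 ± 158 and 118 ± 5.64 TPM (SD, n = 3 clones each).

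Mitosis genes fell in every clone. All 27 mitosis genes of the list were called lower, against 29.1% of all genes, with a median of −1.02. The starved group lay below the fed group without overlap for all 27, against 29.2% of all genes. The promoter of PLK1, a mitotic kinase, is shown with the cell cycle genes homology region (CHR, the letters TTTGAA, either strand), which the DREAM and B-MYB complexes bind, in capitals, in the 250 bases before its start at chr16:23678639-23678888 (plus strand, RefSeq, GRCh38.p14).
PLK1: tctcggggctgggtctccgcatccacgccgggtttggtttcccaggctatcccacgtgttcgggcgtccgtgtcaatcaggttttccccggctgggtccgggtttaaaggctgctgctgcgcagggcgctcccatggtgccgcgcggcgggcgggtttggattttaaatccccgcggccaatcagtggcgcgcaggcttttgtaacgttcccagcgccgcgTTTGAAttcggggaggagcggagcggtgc
The match lies at −29 to −24. These 6 letters occurred in 13 of 23 mitosis promoters found in the table (56.5%), in 1 of 26 DNA replication promoters (3.85%) and in 3704 of 27305 promoters (13.6%).

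PLK1 was at 67.1, 68.8 and 65.3 TPM without glucose, against 174, 183 and 164 TPM with glucose. TOP2A, a topoisomerase of dividing cells, was at 131, 128 and 119 TPM without and 338, 348 and 352 TPM with glucose. These falls of 1.36 and 1.45 (SE 0.08 each, adjusted p = 6.79e-05 and 5.35e-05 from limma) were almost the same size in all clones. MKI67, which encodes the Ki-67 antigen, averaged 73.5 ± 3.39 TPM without and 194 ± 24.8 TPM with glucose (SD, n = 3 clones each). Of 29 DNA replication genes, 27 fell (93.1%, against 29.1% over all genes), with a median of −0.79, GINS3 was not called, and CDC6 rose. CDC6, which loads the replicative helicase, was at 110, 179 and 103 TPM without and 78.4, 77.8 and 81.6 TPM with glucose, a rise not called without pairing. The cell cycle inhibitor CDKN1A (p21) was at 238, 365 and 169 TPM without and 36.0, 24.9 and 22.6 TPM with glucose, a rise of 3.12 (SE 0.20, adjusted p = 0.000103 from limma). MYC rose by 1.13 (SE 0.11, adjusted p = 0.000513 from limma), at 194, 249 and 237 TPM without and 111, 102 and 94.7 TPM with glucose. The largest falls outside these lists included ARTN, a GDNF family ligand, at 5.31, 6.29 and 5.23 TPM without and 14.6, 27.8 and 29.8 TPM with glucose. CCNF, an F-box cyclin, SAC3D1, a centrosome gene, and MXD3, a MAX partner, fell by 1.60, 1.60 and 1.55. The pseudogene EIF4EP2 and the clone-named AL356095.3 also fell by at least 1 in every KO clone. EIF4EP2 is low and is listed at or next to 0 in all starved libraries. AL356095.3 was at 0, 3.17 and 2.65 TPM without and 10.1, 23.6 and 11.8 TPM with glucose, and its WT clones disagreed, with differences of −1.24 and 1.36.

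Growth machinery moved by less. Of 25 cytosolic ribosomal protein genes 8 were called higher (32%, against 12.6% over all genes) and none lower, with a median of 0.17. Quantile normalization turned the median to −0.02 with none called higher, while median-ratio scaling called 20. At most 1 was called higher without clone 2, without clone 3 or without pairing. Ribosome biogenesis genes fell in 12 of 27 cases (44.4%, against 29.1% over all genes), in 6 without clone 2, without clone 3 or after median-ratio scaling, where 2 were called higher, and in 2 without pairing. The nucleolar gene RRS1 averaged 15.4 ± 0.98 TPM without and 30.8 ± 1.89 TPM with glucose (SD, n = 3 clones each).

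**Figure D2:**
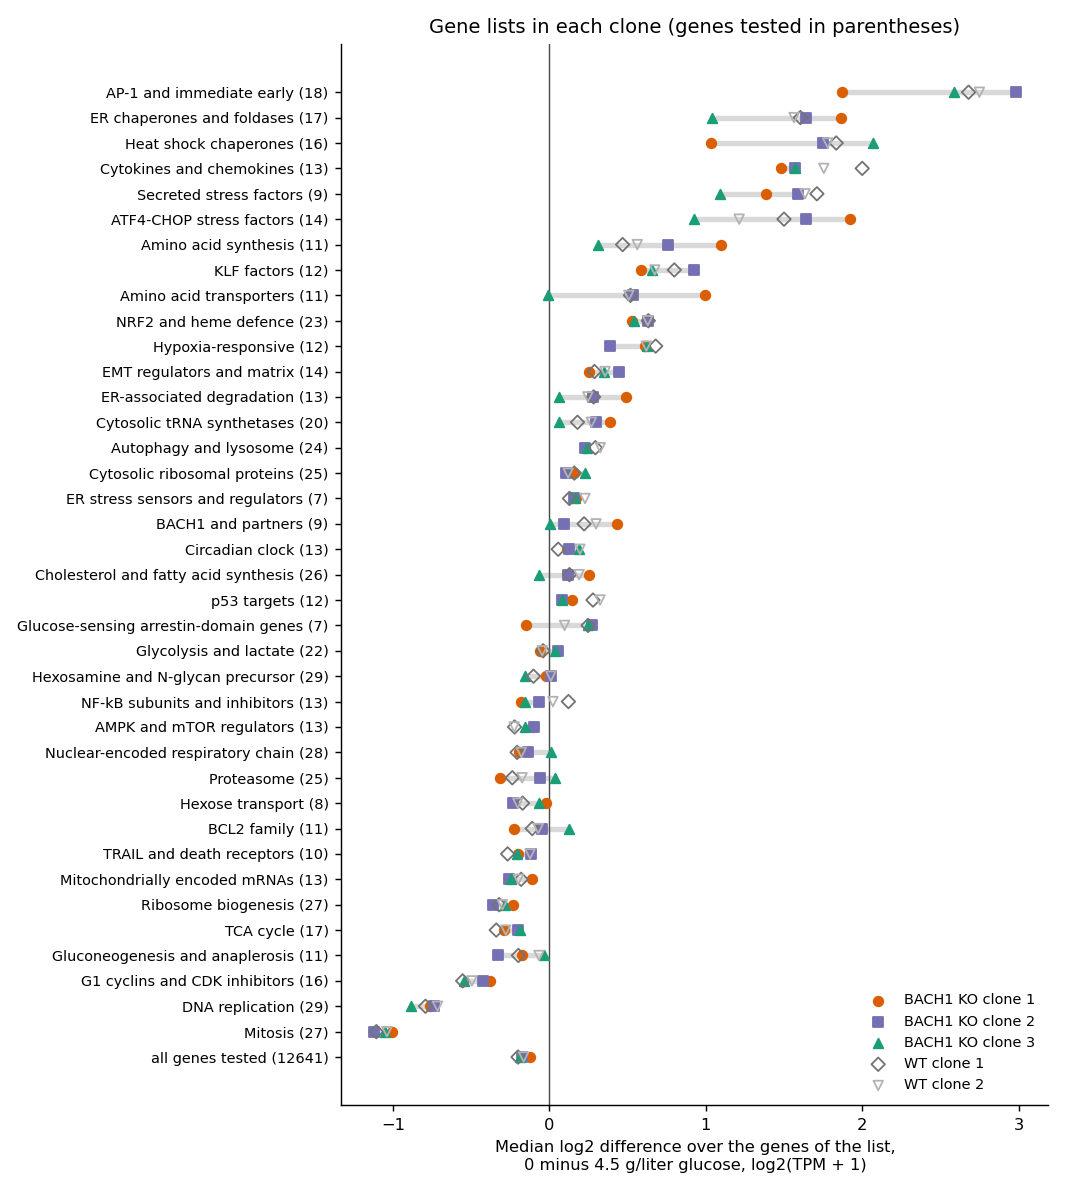
Median log2(TPM + 1) difference (horizontal axis, 0 minus 4.5 g/liter glucose) of each gene list (vertical axis, with the number of genes tested), for the 3 BACH1 KO clones (filled) and the 2 WT clones (open), and grey bars spanning the KO clones. The KO clones lie close together for mitosis and NRF2 and heme defence, and far apart for heat shock chaperones (1.03, 1.75 and 2.07) and amino acid transporters (0.99, 0.54 and −0.01).

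The 3 clones shared the direction of most changes and differed in size. All clones moved the same way for 8603 of 12641 genes (68.1%), and for 5261 of the 5282 called genes (99.6%), which the test favours, since it rewards clones that move alike. Across genes, which are not independent replicates, the log2 differences of clones 2 and 3 correlated at r = 0.832, those of clones 1 and 2 at 0.759 and those of clones 1 and 3 at 0.742 (Pearson, 12641 genes). Clone 1 responded the least. Its change was the smallest of the 3 for 223 of the 344 genes that moved by at least 1 in every clone, against 29 for clone 2 and 92 for clone 3. The median rise of the 280 increased genes was 1.50, 2.21 and 1.85 in clones 1, 2 and 3, and the median of the 64 decreased genes was −1.13, −1.33 and −1.29. The standard deviation of the differences over all genes was 0.53, 0.69 and 0.65.

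**Figure D3:**
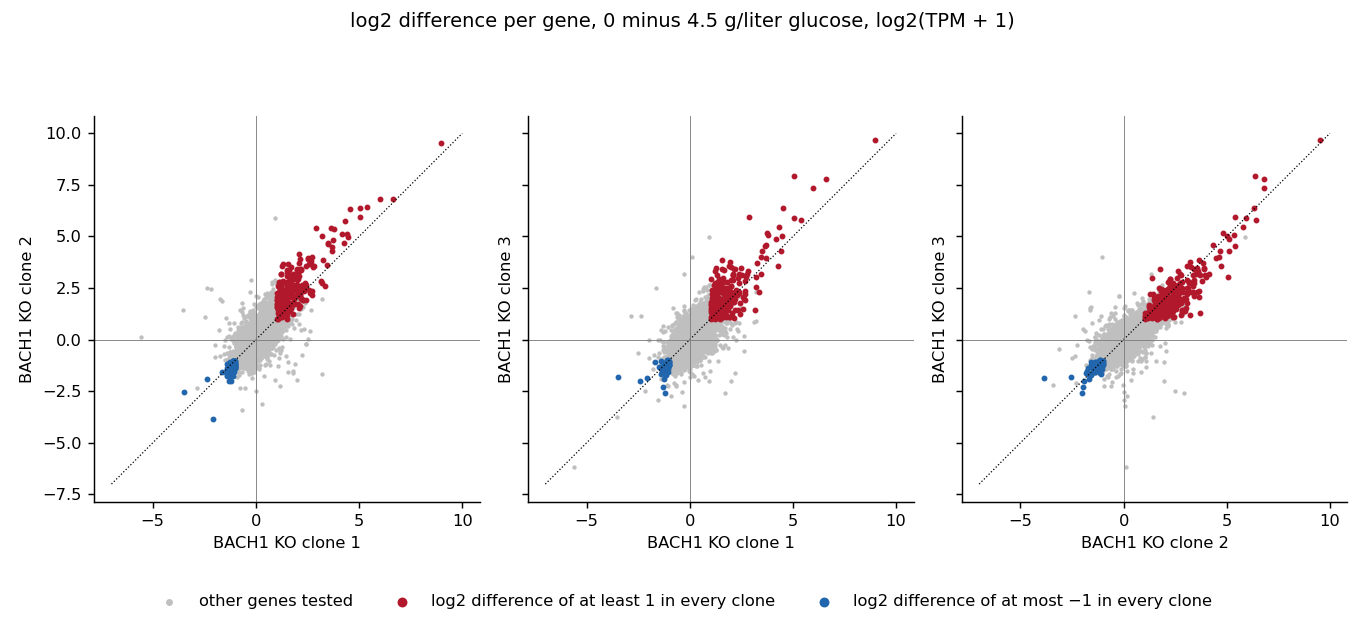
Difference in log2(TPM + 1) per gene (0 minus 4.5 g/liter glucose) of 1 BACH1 KO clone against another, for 12641 genes, with the dotted line marking equal change. Genes that rose (280) or fell (64) by at least 1 in every clone are coloured, and the increased genes have median differences of 1.50, 2.21 and 1.85 in clones 1, 2 and 3.

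The smaller response of clone 1 did not hold for every group. Among the 16 heat shock genes clone 1 had the smallest difference in all 16 and clone 3 the largest in 14, with medians of 1.03, 1.75 and 2.07 in clones 1, 2 and 3. Among the 17 ER chaperones the order was the other way: clone 1 was highest in 13 and clone 3 lowest in 16, with medians of 1.87, 1.64 and 1.04. Over all 12641 genes clone 1 was highest in 5230 and lowest in 4100, and clone 3 was highest in 3481 and lowest in 4683. With the genes of the mitochondrial genome removed, clone 1 was still lowest in 16 of 16 heat shock genes and clone 3 lowest in 17 of 17 ER chaperones. After median-ratio scaling these counts were 16 and 14. Among the 18 immediate early genes clone 1 was lowest in 12 and clone 3 in 6, with medians of 1.87, 2.99 and 2.59. With the genes of the mitochondrial genome removed these counts were 10 and 8, and after median-ratio scaling 13 and 5.

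For amino acid synthesis genes the clones differed more with glucose present, and for ATF4-CHOP genes members went both ways. The range of log2(TPM + 1) over the 3 clones was wider with glucose than without for 9 of 11 synthesis genes and 8 of 14 ATF4-CHOP genes, against 4926 of all 12641 genes. GADD45A, PPP1R15A and ATF3 were among the 6 ATF4-CHOP genes that were spread wider without glucose, and CTH was one of the 2 synthesis genes that were. TRIB3, a pseudokinase induced by ATF4, was at 108, 92.4 and 82.8 TPM without glucose, against 10.8, 23.0 and 44.1 TPM with glucose in clones 1, 2 and 3. Its starved levels lay close together and its fed levels far apart. CHAC1 was at 15.9, 17.4 and 12.3 TPM without and 1.70, 5.79 and 10.6 TPM with glucose, which gave differences of 2.65, 1.44 and 0.20. VEGFA, an angiogenic factor among the hypoxia-responsive genes, showed the same order, at 162, 200 and 189 TPM without and 32.3, 65.5 and 131 TPM with glucose. Fed clone 3 was above fed clone 1 for 14 of 14 ATF4-CHOP genes and 11 of 11 synthesis genes, against 7528 of all 12641 genes. Without glucose these counts were 7 of 14 and 8 of 11, against 6600 of 12641. The mean log2(TPM + 1) of the ATF4-CHOP list was 5.79, 6.24 and 5.97 without glucose, against 3.86, 4.45 and 4.85 with glucose. For heat shock genes the range was wider without glucose in 14 of 16. Their mean was 9.11, 9.69 and 9.96 without and 6.89, 6.71 and 6.72 with glucose. HSPH1, given above, differed between the fed clones too. With 1 library per clone and glucose level, a trait of a clone and a difference between 2 dishes cannot be told apart.

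**Figure D4:**
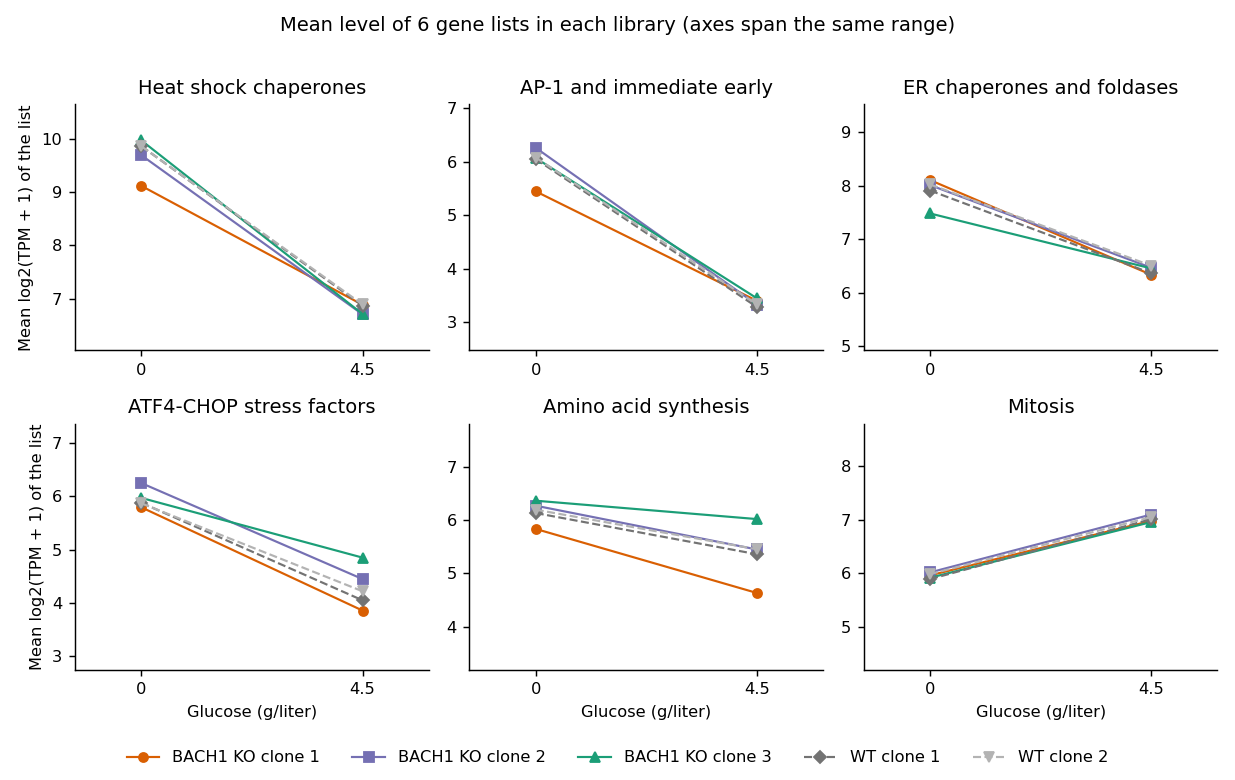
Mean log2(TPM + 1) of 6 gene lists (vertical axes, all of the same span) at 0 and 4.5 g/liter glucose (horizontal), 1 line per clone, BACH1 KO solid and WT dashed. KO clone 1 is low for heat shock and immediate early genes without glucose, the KO clones lie further apart with than without glucose for the ATF4-CHOP and amino acid synthesis means, and for mitosis all 5 lines nearly coincide.

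Some single genes differed between clones by far more than the lists. Of 9994 genes averaging at least 5 TPM over the 6 libraries, the highest and lowest clone differences were 0.33 apart in the median, and 360 (3.60%) were at least 1 apart and 30 at least 2. Pseudogenes and clone-named transcripts made up most of the 8 widest. RPL3P4, a processed copy of a ribosomal protein gene, was listed at 0, 36.8 and 2.85e-07 TPM without glucose in clones 1, 2 and 3, against 47.2, 33.5 and 70.0 TPM with glucose, a fall that was not called without clone 1. Copies of abundant genes share reads with them, so such values are uncertain. TNXB, the gene of the matrix protein tenascin-X, was at 9.08, 15.7 and 2.02 TPM without and 1.21, 11.1 and 8.13 TPM with glucose, and no direction was shared by the clones, although it was called higher without clone 3.

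The same programme was visible with BACH1 present. Of the 280 genes that rose by at least 1 in every KO clone, all 280 were higher in both WT clones without glucose and 269 (96.1%) rose there by at least 1, against 553 of all genes (4.37%). Of the 64 that fell in every KO clone, 61 were lower in both WT clones and 47 (73.4%) by at least 1, against 140 of all genes (1.11%). The median over the increased genes was 1.50, 2.21 and 1.85 in the KO clones and 2.08 and 2.09 in the WT clones. HSPA5 differed by 3.23, 2.74 and 2.54 in the KO clones and 2.44 and 2.65 in the WT clones, and PLK1 by −1.36, −1.40 and −1.32 in the KO clones and −1.39 and −1.46 in the WT clones. TXNIP differed by −2.39, −1.90 and −1.98 in the KO clones and −1.91 and −1.92 in the WT clones. For each gene the WT values lay inside or just outside the KO range. Across genes the differences of KO clone 2 correlated with those of the WT clones at r = 0.852 and 0.87, and those of KO clone 1 at 0.775 and 0.772.

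A direct test of the difference in response between the genotypes (limma over 10 libraries, 5 clones as blocks) called 3 of 12641 genes (0.0237%), with 350 (2.77%) at an unadjusted p under 0.05. HMOX1 differed by −3.80 (SE 0.15, adjusted p = 5.99e-05): it rose in both genotypes, by 2.31, 1.92 and 2.37 in the KO clones and by 6.13 and 5.86 in the WT clones. Its level without glucose was 1356, 1780 and 2033 TPM in the KO clones and 532 and 568 TPM in the WT clones. The unnamed transcript AP000781.2 was at 11.7, 15.9 and 4.33 TPM without glucose in the KO clones and 11.3 and 12.2 TPM in the WT clones. Fed levels were 25.2, 32.0 and 24.6 TPM in the KO clones and 0.33 and 0.44 TPM in the WT clones, a difference in response of −4.63 (SE 0.36, adjusted p = 0.00643 from limma). RNA5SP217, a 5S ribosomal RNA pseudogene, was at 5.02, 4.39 and 3.94 TPM in the starved KO clones and 6.97, 4.84 and 3.18 TPM in the fed KO clones. It was at 7.10 and 5.84 TPM in the starved WT clones and listed at 0 in both fed ones, a difference in response of −2.99 (SE 0.25, adjusted p = 0.0074 from limma). Leaving out either WT clone ended the calls of AP000781.2 and RNA5SP217. With 3 clones against 2, a gene that misses the threshold is not shown to respond alike in the genotypes.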

How the data were processed

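RNA from MDA-MB-231 clones was prepared with TRIzol, made into libraries with Illumina TruSeq chemistry and sequenced. The authors used bcl2fastq 2.19 and kallisto 0.44.0 with GRCh38.p12 and deposited TPM per gene symbol. The submitters' processing notes also name DESeq2, whose counts are not used here. The annotation release and the summing of transcripts per symbol are not given in the sources used here. TPM keeps no depth, so no counting interval is given. In all, 27 symbols that had turned into calendar dates (0.107 to 0.151% of the TPM) were left out, and no 2 libraries held identical values.

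Genes with at least 1 TPM in 3 of the 6 KO libraries were tested on log2(TPM + 1) with limma 3.58.1 in R 4.3.3 (two-sided, eBayes with trend, Benjamini-Hochberg adjustment), with the clone as a block, since each clone was kept with and without glucose. Within clones 1, 2 and 3, the 2 libraries' departures from their group means correlated at 0.644, 0.44 and 0.555. The fit has 2 residual degrees of freedom, 7.72 with the prior, and was run on simulated data. These drew independent normal errors from the fit's own variances, with the same effect in every KO clone. They cannot show how the fit handles clones that respond differently. The difference between genotypes was tested over all 10 libraries. A fit of the 4 WT libraries alone leaves 1 residual degree of freedom, so its calls were not used and WT differences are given per clone. P-values of these paired fits rest on how far the glucose differences of the clones disagree, moderated by the prior. The spread of levels between clones is taken out by the block.

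Members, gene lists and tests were chosen with earlier results of these data known. Genes are named if they are among the 10 largest changes per direction that hold in every KO clone with at least 5 TPM, the 4 smallest p-values among the called members of each list, the 8 widest clone spreads, the genes called in the genotype difference, or BACH1, HMOX1, HSPA5, TXNIP and ATF4. Other genes, such as TRIB3, CHAC1, HSPH1, CDC6 and the exceptions of a list, were named after their values were seen. Alternatives were other pseudocounts, filters, scalings, thresholds and spreads, no pairing, and leaving out each clone. The clone order of the lists without mitochondrial genes and after median-ratio scaling, and the range over the clones per gene, were added after seeing the data. Promoters are RefSeq sequences on GRCh38.p14.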

Additional observations from a re-analysis of the deposited data

Results flagged for a closer look

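A difference in response between the genotypes set apart HMOX1 (−3.80, adjusted p = 5.99e-05), AP000781.2 (−4.63, adjusted p = 0.00643) and RNA5SP217 (−2.99, adjusted p = 0.0074), each as the log2 response in KO minus that in WT from limma over 3 KO and 2 WT clones. In HMOX1 both genotypes rose and the KO clones rose less. AP000781.2 fell in 3 of 3 KO clones, with differences of −1.05, −0.96 and −2.27, and was higher in 2 of 2 WT clones, with 3.21 and 3.20. For RNA5SP217 the KO clones differed by −0.41, −0.12 and 0.24 and the WT clones by 3.02 and 2.77. AP000781.2 and RNA5SP217 reach at most 32.0 TPM in any library.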

How the results depend on the processing

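The 5282 calls became 2291 with no pairing (no replicate block), 2656 at an adjusted p under 0.01, and 2745 to 5642 when a KO clone was left out. The 344 genes past 1 in every clone became 159 with a pseudocount of 5, 1218 at a limit of 0.58, and 386 to 672 without a clone. Fewer clones leave fewer conditions to meet. The 3 genes called between genotypes became 1 with no filter on low values, 1 with no pairing, and 1 to 5 when a clone was left out. The share of genes with 1 sign in all clones kept within 58.2 to 71.4%. Median-ratio scaling moved the median of all genes from −0.16 to −0.01 and the share of calls that were higher from 30.3 to 55.6%.

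Among 106 results for named genes, 21 calls were lost without pairing, the largest loss, 15 at an adjusted p under 0.01, 14 with no filter, 9 with median-ratio scaling, 7 after quantile normalization, and none with a pseudocount of 0.1 or without the mitochondrial genes. Leaving out clone 1, 2 or 3 ended 4, 10 and 10. Lost without pairing were, among others, CHAC1 (adjusted p = 0.0815), CTH (0.129), SLC2A1 (0.082), LDHA (0.0646), CDC6 (0.0618) and VEGFA (0.0579), and ATF4 was lost with no filter (0.0681). Signs turned only for genes not called in the KO clones: ERO1A (0.106 with median-ratio scaling, 0.044 after quantile normalization), GINS3 (0.0425 and 0.000174 in the same order, and −0.22 to 0.0733 without a clone), RNA5SP217 (0.0486 with median-ratio scaling, −0.26 to 0.062 without a clone), TNXB (−0.56 to 1.33 without a clone) and DDIT4 (−0.29 to 0.49 without a clone). The cause was not tested. Depth is unknown, so how much of the spread of low genes is sampling cannot be given.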
